A study of Homo sapiens with 6 samples.

Results

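Of the 63677 gene identifiers in the count table, 10 were examined here, namely 5 transcription factors that drive epithelial-mesenchymal transition (EMT), ZEB1, ZEB2, SNAI1, SNAI2 and TWIST1, and 5 adhesion and filament genes that mark it, CDH1, CDH2, CDH11, EPCAM and VIM. They were chosen by symbol and all 10 were found, each with a single Ensembl identifier. The samples were T24 cells, an established human bladder cancer line of grade 3, with 3 control libraries (replicates 1, 3 and 5, non-targeting siRNA) and 3 siRBM3 libraries (replicates 3, 4 and 5, a pool of 2 siRNAs against RBM3, an RNA-binding protein). Both groups were transfected by lipofection at 25 nM siRNA for 4.5 h and collected the next day. All libraries therefore come from 1 cell line, and the silencing rests on 1 siRNA pool. The labels do not say whether replicates were separate cultures, so p-values measure the spread between these libraries.

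EMT is the programme by which epithelial cells loosen their junctions and take on the shape and motility of mesenchymal cells. Its textbook sign is the cadherin switch, in which E-cadherin (CDH1), the adhesion molecule of epithelial junctions, gives way to N-cadherin (CDH2), while the filament protein vimentin (VIM) accumulates. The ZEB, SNAI and TWIST proteins are DNA-binding factors that recognise E-box sequences and repress epithelial genes such as CDH1, and in bladder cancer this programme is associated with invasive disease.

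Library totals ranged from 23603992 to 45098612 counts, with siRBM3 replicate 3 the deepest and also the library with the largest share of mitochondrial counts (9.4%, against 1.63% to 4.15% in the other 5). Levels are given as CPM, the library-size-relative unit of edgeR after TMM scaling, in the order control replicates 1, 3 and 5 and siRBM3 replicates 3, 4 and 5. The silenced gene stood at 225, 368 and 301 CPM in control libraries, against 54.1, 90.1 and 58.4 CPM after silencing, so the groups did not overlap. For RBM3 the log2 fold change was -2.14 (SE 0.24), at a false discovery rate (FDR, Benjamini-Hochberg over the 15099 genes tested) of 0.0822 by edgeR's quasi-likelihood method. Of the markers for the labelled cell type, KRT7, KRT8, KRT18, KRT19, GATA3 and PPARG were measured in every library. The uroplakin UPK2 had 30 to 75 counts, whereas the basal keratin KRT5 and the uroplakins UPK1B and UPK3A were at 0 to 8 counts. The summed level of the 10 urothelial markers was 5217 to 6011 CPM in control and 4350 to 4459 CPM after silencing. Keratins carried most of this sum, with KRT7 averaging 3167 CPM in control and 2441 CPM after silencing. Of the 7 markers tested, 5 were lower, with the smallest p for KRT7 (log2 fold change -0.38, edgeR FDR 0.17). The 2 higher were GATA3 (log2 fold change 0.37, edgeR FDR 0.353) and UPK2 (0.34, edgeR FDR 0.634). KRT7, KRT8 and GATA3 had an unadjusted p under 0.05 in edgeR (42.9%, beside 13.1% of all tested genes). The same 3 had no overlap between the groups, as did 19.9% of all tested genes. The part of the marker sum in the results below was not tested. The 6 fibroblast markers summed to 10.5 to 10.9 CPM in control libraries and 10.9 to 13.2 CPM after silencing, with COL1A1 at 209 to 347 counts, PDGFRB at 43 to 80 and DCN and LUM at 0 or 1. The 5 leukocyte markers summed to 2.56 to 3.37 CPM and 2.29 to 2.75 CPM, with CD14 at 54 to 100 counts and PTPRC at 1 to 7.

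Divided by exon length, the levels of the 10 genes ranged widely. VIM was the highest, at 419 to 552 CPM per kb of annotated exon, and in control cells it held place 45 among the 14747 tested genes with a known length. CDH2 came next with 18.6 to 22.1 CPM per kb. SNAI1 (7.83 to 11.1), SNAI2 (6.32 to 10.6) and ZEB1 (6.24 to 8.25 CPM per kb) followed, and their ranges overlapped, so the order among them is not resolved. EPCAM, the epithelial cell adhesion molecule, had 2.02 to 2.83 CPM per kb and ZEB2 had 0.456 to 0.725. TWIST1 (0.0192 to 0.158), CDH1 (0.00664 to 0.119) and CDH11 (0.00367 to 0.0119 CPM per kb) were lowest, with each range overlapping the next. With the length of the longest transcript in place of all annotated exons the same groups were found, but ZEB1 headed the group of 3 and ZEB2 stood at 1.24 to 1.98 CPM per kb.

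**Figure D1:**
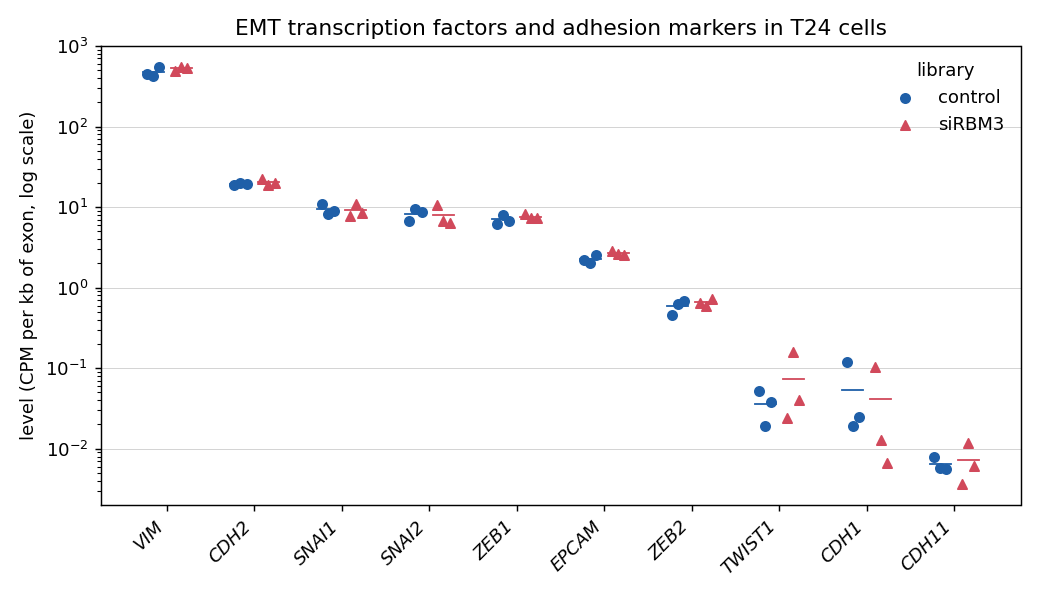
Level of each of the 10 genes in every library, in CPM per kb of annotated exon on a log scale, with control libraries as circles, siRBM3 libraries as triangles and a line at each group mean. VIM lies between 419 and 552, CDH2 between 18.6 and 22.1, and TWIST1, CDH1 and CDH11 lie at or below 0.158 in both groups.

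E-cadherin was near the limit of detection and N-cadherin was abundant in both groups. CDH1 (ENSG00000039068, chromosome 16, 68771195 to 68869440 on the plus strand of GRCh37) had 21, 3 and 4 counts in control replicates 1, 3 and 5 and 26, 2 and 1 counts in siRBM3 replicates 3, 4 and 5. It was thus near the floor of 3 counts in 4 libraries and above it in control replicate 1 and siRBM3 replicate 3, which belong to different groups, and the groups overlapped. Such low counts did not pass the filter of edgeR, so CDH1 was not tested.

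CDH2 (ENSG00000170558, chromosome 18, 25512843 to 25757910, minus strand) had 4090 to 7775 counts. Its level was 159.8, 169 and 166 CPM in control libraries, against 189, 162 and 171 CPM after silencing. The groups overlapped, with siRBM3 replicate 3 the highest. Its log2 fold change was 0.08 (SE 0.09, 95% interval -0.13 to 0.29, edgeR FDR 0.772). Per kb of exon, CDH2 exceeded CDH1 by 156-fold in control replicate 1 and 212-fold in siRBM3 replicate 3, and by 781- to 3002-fold in the other 4 libraries. These ratios rest on 1 to 26 counts of CDH1. CDH11, a cadherin of mesenchymal cells such as osteoblasts (ENSG00000140937, chromosome 16, 64977656 to 65160015, minus strand), was at a far lower level than CDH2. It had 3, 2 and 2 counts in control and 2, 4 and 2 in siRBM3 libraries, and no fold change is given at this depth.

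Across the 23 cadherin genes examined, CDH2 made up 35.5% to 40.4% of the summed level per kb, and CDH1 at most 0.237%. With the longest transcript as the length, CDH2 made up 45.6% to 50.9%. The next was CDH13, a cadherin that is anchored to the membrane by a lipid and lacks a cytoplasmic tail, at 13.0 to 16.8 CPM per kb, which did not overlap the range of CDH2. CDH6 had 4.67 to 7.98 CPM per kb, and CDH5, known as the cadherin of vascular endothelium, had 4.52 to 6.72. Of the other endothelial markers, KDR had 0 or 1 count and VWF 9 to 20 counts in these libraries, against 789 to 1658 for CDH5. In all, 10 of the 23 cadherins had at least 10 counts in every library and 5 had at most 3 counts in any.

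**Figure D2:**
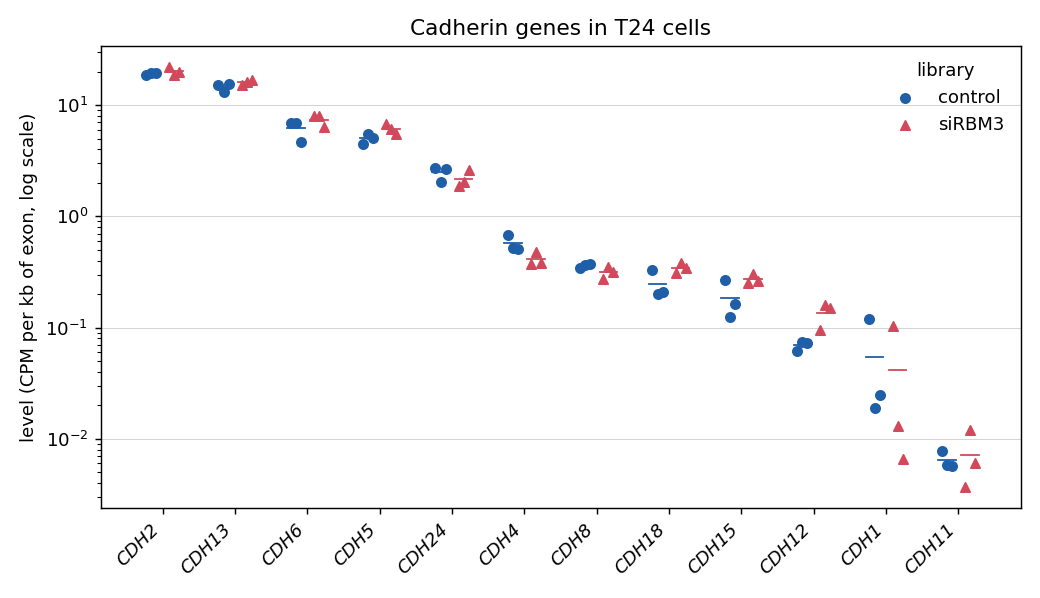
Level of the 10 cadherin genes with at least 10 counts in every library, and of CDH1 and CDH11, in CPM per kb of annotated exon on a log scale, with a line at each group mean. CDH2 and CDH13 head the family in both groups, CDH5 lies between 4.52 and 6.72, and CDH1 is spread from 0.00664 to 0.119.

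VIM (ENSG00000026025, chromosome 10, 17270240 to 17279592, plus strand) had 2325, 2168 and 2841 CPM in control libraries, against 2550, 2858 and 2788 CPM after silencing. Control replicates 1 and 3 were the lowest, and control replicate 5 lay among the siRBM3 libraries. The log2 fold change was 0.16 (SE 0.12, 95% interval -0.13 to 0.45, edgeR FDR 0.634). Without control replicate 5 it was 0.28, with an unadjusted p of 0.046 in edgeR. Exon bases of VIM are shared to 24.6% with genes on the opposite strand, mainly VIM-AS1, and a strand setting for the counting is not stated. VIM-AS1 itself carried 744 to 1615 counts, against 56668 to 104613 for VIM.

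EPCAM (ENSG00000119888, chromosome 2, 47572297 to 47614740, plus strand) was the only tested gene of the 10 whose groups did not overlap. It had 5.38, 4.90 and 6.14 CPM in control libraries, against 6.87, 6.32 and 6.21 CPM after silencing, from 128 to 282 counts a library. Its log2 fold change was 0.24 (SE 0.17, 95% interval -0.14 to 0.62, edgeR FDR 0.578), and it ranged from 0.17 to 0.33 over the alternatives. Among all tested genes, the 3 siRBM3 libraries all exceeded the controls in 9.98% and all fell short of them in 9.93%, or 19.9% in either direction, which is the background for this 1 gene of 7. Since the cells were sequenced in bulk, more cells with EPCAM and more EPCAM RNA per cell cannot be told apart. VIM exceeded EPCAM per kb by 174- to 217-fold, with the lowest ratio in siRBM3 replicate 3.

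Of the E-box-binding factors, ZEB1 and ZEB2 encode large zinc finger proteins that bind DNA at both ends and recruit CtBP corepressors. ZEB1 (ENSG00000148516, chromosome 10, 31607424 to 31818742, plus strand) had 54.0, 69.7 and 58.6 CPM in control libraries, against 71.3, 62.9 and 63.8 CPM after silencing. Control replicate 1 was the lowest library and siRBM3 replicate 3 the highest, and the groups overlapped (log2 fold change 0.12, SE 0.12, 95% interval -0.16 to 0.40, edgeR FDR 0.721). ZEB2 (ENSG00000169554, chromosome 2, 145121931 to 145278624, minus strand) had 11.9, 16.5 and 17.8 CPM in control and 17.1, 15.3 and 19.0 CPM after silencing. Its log2 fold change was 0.15 (SE 0.18, 95% interval -0.25 to 0.56, edgeR FDR 0.768), and it was -0.01 without control replicate 1, the lowest library. Per kb of exon ZEB1 exceeded ZEB2 by 9.94- to 13.7-fold, and by 5.04- to 6.94-fold with the longest transcript as the length, with overlap between the groups on either scale. Exon bases are shared with other genes to 4.58% for ZEB1 (ZEB1-AS1) and to 16.3% for ZEB2 (ZEB2-AS1 among them).

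SNAI1 and SNAI2 encode Snail and Slug, zinc finger repressors that recruit histone-modifying enzymes through a short amino-terminal domain. SNAI1 (ENSG00000124216, chromosome 20, 48599517 to 48605423, plus strand) had 18.7, 14.0 and 15.3 CPM in control libraries, against 13.4, 18.9 and 14.4 CPM after silencing. Its highest libraries were control replicate 1 and siRBM3 replicate 4, and the log2 fold change of -0.05 (SE 0.18, 95% interval -0.45 to 0.36, edgeR FDR 0.937) had no stable sign, since it was 0.08 without control replicate 1 and 0.06 without siRBM3 replicate 3. SNAI2 (ENSG00000019549, chromosome 8, 49830157 to 49834299, minus strand) had 22.3, 31.2 and 28.2 CPM in control and 34.8, 22.2 and 20.7 CPM after silencing. siRBM3 replicate 3 was the highest of all libraries and the other siRBM3 libraries were the lowest, so that the spread within siRBM3 cells was as wide as the whole range. The log2 fold change of SNAI2 was -0.07 (SE 0.22, 95% interval -0.57 to 0.43, edgeR FDR 0.925), with a range of -0.34 to 0.07 when single libraries were dropped. The level of SNAI2 per kb relative to SNAI1 ranged from 0.612 in siRBM3 replicate 4 to 1.35 in siRBM3 replicate 3. In control cells this ratio lay between 0.62 and 1.15, within the range of the siRBM3 libraries.

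TWIST1 (ENSG00000122691, chromosome 7, 19060614 to 19157259, minus strand) encodes a basic helix-loop-helix factor that binds DNA with E-proteins such as TCF3. It had 3, 1 and 2 counts in control replicates 1, 3 and 5 and 2, 8 and 2 counts in siRBM3 replicates 3, 4 and 5. Only siRBM3 replicate 4 exceeded the floor of 3 counts, and a difference between the groups was not detectable at this depth. Its relative TWIST2 had 0 to 4 counts in any library, while FOXC2, another transcription factor linked to EMT, had 679 to 1366 counts.

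The 7 of the 10 genes that passed the filter on low counts (CDH2, VIM, ZEB1, ZEB2, SNAI1, SNAI2 and EPCAM) were compared between siRBM3 and control cells. None had a fold change of at least 1.5 with an FDR below 0.01 in edgeR, and none had an unadjusted p under 0.05. The study's methods give these fold and FDR thresholds for a comparison with DESeq2, not edgeR. DESeq2 likewise called 0 of these 7, with 0 at an unadjusted p under 0.05. By DESeq2 6.72% of 30089 genes had an unadjusted p under 0.05. That set includes genes below the filter, unlike the 15099 tested in edgeR, so the shares of the 2 tools are not comparable. Over all tested genes 0.0% were called in edgeR and 13.1% had an unadjusted p under 0.05 (6.56% higher and 6.58% lower in siRBM3 cells), and DESeq2 called 1.27% of the 12589 genes that received an adjusted p from it. Log2 fold changes lay between -0.07 for SNAI2 and 0.24 for EPCAM, with a median of 0.12 beside -0.01 over all tested genes. For 6 of the 7 the 95% interval excluded a fold change of 1.5 in either direction, as it did in 48.8% of all tested genes. The exception was EPCAM, whose interval reached 0.62, past the threshold of 0.58 on the log2 scale. These intervals are per gene and not adjusted for the number of genes.

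**Figure D3:**
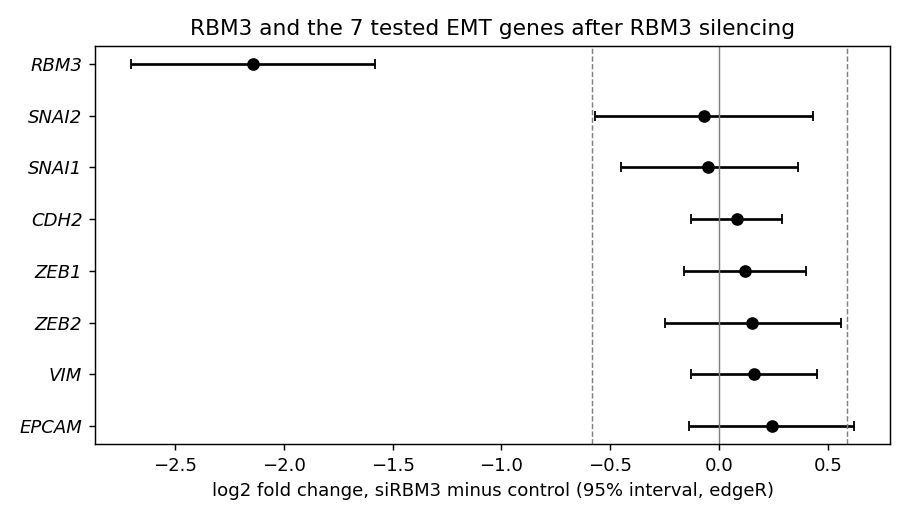
Log2 fold change (siRBM3 minus control) of RBM3 and of the 7 tested EMT genes with the 95% interval from edgeR (3 libraries per group), the dashed lines marking a fold change of 1.5 in either direction. RBM3 lies at -2.14, and the EMT genes lie between -0.07 and 0.24 with every interval including 0.

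For the tested genes of the 10 with the smallest p, EPCAM and VIM, the most similar profiles were sought as the smallest root mean square difference of log2 deviations over the 6 libraries. MXI1 (0.0298), ITPR1 (0.0427) and BMP1 (0.0438) were closest to EPCAM. POLR3GL (0.0331), TEKTIP1 (0.0382) and UBXN6 (0.0441) were closest to VIM. These matches are a description only.

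The wider EMT programme was followed in 5 lists, written with earlier results of these data known, and 0 genes of any list passed the fold and FDR thresholds in edgeR or DESeq2. Of 23 epithelial junction genes 19 were tested, 8 higher and 11 lower in siRBM3 cells, with a median log2 fold change of -0.01. At an unadjusted p under 0.05 there were 4, all higher, which is 21.1% beside the 13.1% of all genes. CTNND1 (p120 catenin), which holds cadherins at the membrane, averaged 333 ± 18.1 CPM in control cells and 402 ± 4.44 CPM after silencing (SD, n = 3 each, log2 fold change 0.27, SE 0.09, edgeR FDR 0.251). Its unadjusted p in edgeR stayed under 0.05 with any single library left out, but was 0.0809 with scaling by library size only. Also among these 4 were JUP (plakoglobin, 0.31) and MARVELD2 (tricellulin, 0.46), named after their values were seen. Their unadjusted p in edgeR exceeded 0.05 for JUP without siRBM3 replicate 3 or control replicate 5 (up to 0.0933), and exceeded 0.05 for MARVELD2 with any library but control replicate 5 left out. On the lower side the smallest p values were those of the tight junction gene TJP3 (log2 fold change -0.85, edgeR FDR 0.403) and the desmosomal gene PKP2 (-0.38, edgeR FDR 0.5). CTNNA1 and CTNNB1, the alpha- and beta-catenins that link cadherins to actin, had log2 fold changes of -0.05 and -0.01. Among tight junction genes, CLDN3 had at most 1 count in any library and OCLN 3 to 10, whereas CLDN1 had 4966 to 12539 and TJP1 4283 to 7515.

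Of 17 epithelial identity genes 12 were tested, with a median log2 fold change of -0.13. Among them 2 had an unadjusted p under 0.05 (16.7%), in opposite directions. MUC1, a membrane mucin, had 2.72, 2.72 and 3.16 CPM in control and 5.26, 4.70 and 4.16 CPM after silencing (log2 fold change 0.72, SE 0.19, edgeR FDR 0.187). The keratin KRT8 had 1344, 993 and 1111 CPM in control and 780.3, 921 and 966 CPM after silencing (log2 fold change -0.37, SE 0.14, edgeR FDR 0.309), and its unadjusted p reached 0.091 with single libraries left out. Next by p were the factors KLF5 (0.28, edgeR FDR 0.518) and KLF4 (-0.40, edgeR FDR 0.492). Levels in this list were mixed also within families of regulators. ESRP1, GRHL2, OVOL1 and RAB25 had at most 11 counts in any library, whereas ESRP2 had 81 to 179, GRHL3 77 to 210, GRHL1 11 to 40, OVOL2 13 to 41 and ELF3 254 to 525.

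Of 25 mesenchymal genes 20 were tested, 14 higher and 6 lower, with a median of 0.13, and 4 had an unadjusted p under 0.05 (20%). TCF4, a helix-loop-helix E-protein, had 43.4, 45.6 and 44.6 CPM in control and 62.5, 51.9 and 58.4 CPM after silencing (log2 fold change 0.37, SE 0.10, edgeR FDR 0.209). AXL, a receptor tyrosine kinase of mesenchymal cells, had 392, 395 and 379 CPM in control and 277, 297 and 322 CPM after silencing, with no overlap and lower values after silencing (log2 fold change -0.38, SE 0.09, edgeR FDR 0.161). COL3A1 (log2 fold change 0.97, SE 0.42, edgeR FDR 0.377) rested on 5 to 29 counts. Its unadjusted p exceeded 0.05 without control replicate 3, control replicate 5, siRBM3 replicate 4 or siRBM3 replicate 5 (up to 0.152 in edgeR). Fibronectin (FN1) averaged 21158 ± 1914 CPM in control cells and 24953 ± 3079.9 CPM after silencing (SD, n = 3 each, edgeR FDR 0.483).

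Partners and regulators of the EMT factors were all measured, and 29 of 29 were tested, with a median log2 fold change of 0.03 and 4 under an unadjusted p of 0.05 (13.8%). BTRC encodes beta-TrCP, the ubiquitin ligase subunit that marks phosphorylated Snail and beta-catenin for degradation. It had 29.7, 25.9 and 28.1 CPM in control libraries, against 42.2, 40.3 and 43.3 CPM after silencing. The log2 fold change was 0.59 (SE 0.11, edgeR FDR 0.0931, DESeq2 adjusted p 0.000608). Dropping single libraries gave 0.54 to 0.63. SMAD3, a transducer of TGF-beta signals, averaged 317 ± 18.4 CPM in control cells and 387 ± 12.2 CPM after silencing (SD, n = 3 each, log2 fold change 0.29, SE 0.09, edgeR FDR 0.236). Its unadjusted p in edgeR stayed under 0.05 with any single library left out. With scaling by library size only it was 0.0569, and with the replicate number as a block 0.0586. FBXL5, another ligase subunit reported to act on Snail, had a log2 fold change of -0.24 (SE 0.10, edgeR FDR 0.356), and for AJUBA, a LIM-domain corepressor of Snail, it was -0.50 (edgeR FDR 0.423). HDAC2, a histone deacetylase, was also under an unadjusted p of 0.05 (0.27, edgeR FDR 0.28) and is named after its value was seen. For FBXL5 and HDAC2 this did not hold with some single libraries left out (p up to 0.129 and 0.0698).

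Of the 20 other cadherins 11 were tested, with a median of 0.17, and 1 had an unadjusted p under 0.05 (9.09%). This was CDH12, with 10 to 11 counts in control and 21 to 23 in siRBM3 libraries (log2 fold change 0.93, SE 0.34, edgeR FDR 0.308). Its unadjusted p exceeded 0.05 with 5 of the 6 libraries left out in turn. CDH5 (log2 fold change 0.28, edgeR FDR 0.398) and CDH13 (0.13, edgeR FDR 0.641) had small positive differences. CDH4 and CDH8 had log2 fold changes of -0.48 (edgeR FDR 0.385) and -0.21 (edgeR FDR 0.67). CDH3, CDH6 and CDH13 stand in 2 lists each.

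**Figure D4:**
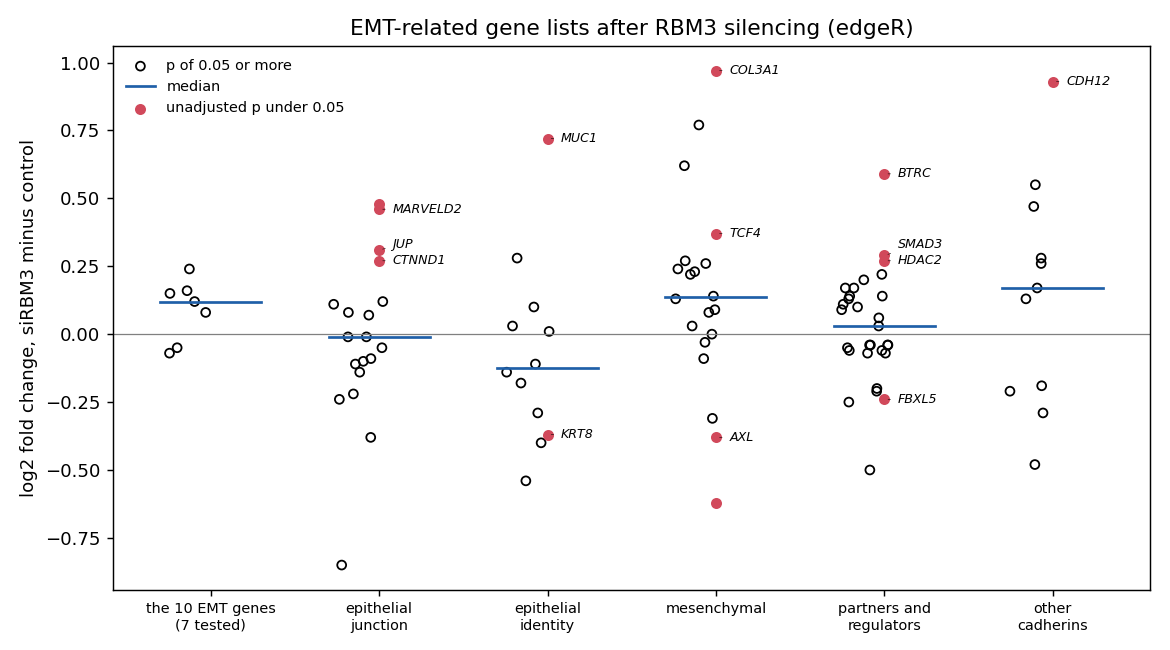
Log2 fold changes (siRBM3 minus control, edgeR) of the 7 tested EMT genes and of the tested members of the 5 lists, with list medians as lines and genes under an unadjusted p of 0.05 filled, with names for those described in the text. The 7 EMT genes lie between -0.07 and 0.24, a narrower span than any of the lists, whose values run from -0.85 for TJP3 to 0.97 for COL3A1. The lists hold more tested genes (11 to 29) and reach lower counts. TJP3 had 6 to 17 counts and COL3A1 5 to 29, against at least 128 for the 7 EMT genes.

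The EMT factors bind E-boxes, and the promoter windows that RefSeq (GRCh38.p14) gives for the 10 genes, 250 bases before to 50 bases after a start, were searched for the sequences CACCTG and CAGGTG, which are each other's reverse complement. Windows were used for 4 of them, with 7 for ZEB1, 2 for CDH2 and 1 each for VIM and ZEB2, while CDH1, CDH11, EPCAM, SNAI1, SNAI2 and TWIST1 were not analysed here. Of these 11 windows 2 held the motif, both of ZEB1, beside 20.6% of all 35116 windows. The ZEB1 window with 3 copies (chr10:31318966-31319265, plus strand, copies from bases 9, 166 and 284) and the VIM window without any (chr10:17227991-17228290, plus strand) are shown to let the factor gene be compared with the highest of the 10 genes, with the motif in capitals.
ZEB1: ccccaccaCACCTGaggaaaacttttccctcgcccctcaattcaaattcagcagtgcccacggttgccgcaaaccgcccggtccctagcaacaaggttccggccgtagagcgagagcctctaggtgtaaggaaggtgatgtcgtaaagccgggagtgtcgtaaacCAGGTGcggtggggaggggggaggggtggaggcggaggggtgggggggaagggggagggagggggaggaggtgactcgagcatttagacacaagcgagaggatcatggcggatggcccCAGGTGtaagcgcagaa
VIM: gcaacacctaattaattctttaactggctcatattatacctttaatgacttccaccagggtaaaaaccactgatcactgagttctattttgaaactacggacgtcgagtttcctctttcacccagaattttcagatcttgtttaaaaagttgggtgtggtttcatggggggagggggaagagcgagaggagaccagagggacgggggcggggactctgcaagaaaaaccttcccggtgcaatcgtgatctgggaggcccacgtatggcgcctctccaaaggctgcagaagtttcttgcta
Of all windows, 0.635% held at least 3 copies. A match of letters is not evidence of binding, and ZEB1 and VIM differed from control by 0.12 and 0.16 on the log2 scale, within the spread of the libraries.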

How the data were processed

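RNA of T24 cells (3 control and 3 siRBM3 libraries, grouped and numbered by their titles) was sequenced as single-end reads of 75 bases from stranded polyA libraries. The authors trimmed reads with BBDuk, aligned them to hg19/GRCh37 with STAR 2.5.2a, marked duplicates with Picard and deposited raw counts per Ensembl gene from featureCounts, without normalization. The annotation release, strand setting and treatment of duplicates at counting were not given in the sources used here.

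Genes were kept by filterByExpr of edgeR 4.0.16 (minimum count 10, minimum total 15), scaled by TMM and compared with its quasi-likelihood test with robust dispersions over 15099 genes. Benjamini-Hochberg adjustment was used, and calls needed a 1.5-fold difference at an FDR below 0.01. The SE is the log2 fold change over the root of F. DESeq2 1.42.0, other scaling and filters, each library left out and the replicate number as a block were the alternatives. The fit and its intervals were also run on simulated counts with the same dispersion for every gene. That setting is simpler than these libraries, so it does not show how well the calls and intervals hold here. Positions and exon lengths are from GENCODE v44lift37 (GRCh37), with 55665 of 63677 identifiers matched; PECAM1 of the endothelial markers was not analysed here. R 4.3.3 and Python 3.11.15 were used.

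The genes and lists were chosen with earlier results of these data known. Named genes are RBM3, the 10 genes, the 2 with the smallest p in each direction of each list, and the closest profiles; some genes that this rule names are not reported here. Within groups, pairs of libraries had chi-square values per degree of freedom of 27.7 to 141, so no library was a copy or a plain resequencing of another. These values do not show whether the libraries came from separate RNA or separate cultures.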

Additional observations from a re-analysis of the deposited data

How the results depend on the processing

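For the 10 EMT genes, 0 were called in edgeR or DESeq2 under any of the 12 alternatives, and the number with an unadjusted p under 0.05 was 0 in all of them except without control replicate 5, where it was 1 (VIM), a range of 0 to 1. Signs turned for ZEB2 without control replicate 1 (-0.01), for SNAI1 without control replicate 1 (0.08), siRBM3 replicate 3 (0.06) or siRBM3 replicate 5 (0.00), and for SNAI2 without control replicate 3 (0.04), siRBM3 replicate 4 (0.03) or siRBM3 replicate 5 (0.07), all on the log2 scale. With single libraries left out these genes ranged from -0.01 to 0.27, from -0.21 to 0.08 and from -0.34 to 0.07. CDH2, VIM, ZEB1 and EPCAM kept a positive sign in all 12. The replicate number was used as a block because 3 and 5 occur in both groups, but the labels do not say whether equal numbers mark a pair. The deviations of same-numbered libraries correlated at 0.609 for number 3 and 0.0908 for number 5. For unequal numbers the correlations ran from -0.422 to 0.282, so whether the libraries are paired is not settled. Control replicate 1 and siRBM3 replicate 4 carry numbers absent from the other group. The block therefore compared the groups within replicates 3 and 5 only. Under this block RBM3 had a log2 fold change of -2.57 (edgeR FDR 2.69e-05) and 336 genes were called (145 higher, 191 lower). Of the EMT genes 0 were called, and of the lists BTRC among others. RBM3 passed the FDR also in DESeq2 (-2.14) and without a filter (-2.13), and lay between -2.40 and -1.96 with single libraries left out. Over all genes 160 were called by DESeq2, 279 without a filter and 0 to 1 with single libraries left out, against 0. List genes with an unadjusted p under 0.05 were as follows. Junction genes numbered 2 with library size only, 7 with the block and 2 to 4 without single libraries, against 4. Identity genes numbered 4 without a filter and 1 to 2 without single libraries, against 2. Mesenchymal genes numbered 8 without a filter and 2 to 4 without single libraries, against 4. Partners and regulators numbered 2 with library size only, 7 with the block and 2 to 6 without single libraries, against 4. Other cadherins numbered 5 without a filter, 0 at a mean of 20 counts, 3 with the block and 0 to 2 without single libraries, against 1. The causes were not tested. Depth limits CDH1, CDH11 and TWIST1, which had at most 26, 4 and 8 counts.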
